A study of Mus musculus with 4 samples.

Results

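The genes described here are 10 genes of intestinal iron uptake, iron sensing and heme metabolism: Heph, Slc40a1, Slc11a2, Cybrd1, Tfrc, Aco1, Ireb2, Alas1, Uros and Hmox1. They were chosen by name, and every probe set that the platform annotation assigns to 1 of them alone was taken, 24 of 45101 probe sets on the array. On this array several short probes to 1 transcript are read together as a probe set. Of the 24, 21 are ordinary probe sets and 3 are array control probe sets laid along the Tfrc transcript. None was removed by a filter on low values. Although such a set of genes would usually include iron storage, no member stores iron, and the ferritin heavy chain is treated among the companion genes.

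RNA came from crypt epithelium of the mouse jejunum, of a strain labelled C57BL/6J enriched. There were 2 arrays for the Yy1 knockout and 2 for the control. The knockout mice carried floxed Yy1 alleles (YY1f/f) and Vil-Cre-ERT2, a tamoxifen-activated Cre recombinase under the Villin promoter of the intestinal epithelium, and tamoxifen was given for 4 days. The labels give the other group only as control. Its genotype, and whether it received tamoxifen, were not clear from them, so Yy1 loss and any effect of Cre-ERT2 or tamoxifen cannot be told apart. The labels call the replicates biological without saying that each came from a separate mouse, so the tests measure the spread between these samples. YY1 is a DNA-binding protein with zinc fingers that is found at many promoters, and the comparison asks which transcripts differ in crypts that lack it.

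Dietary iron enters the enterocyte in its reduced form. The ferric reductase CYBRD1 and the importer DMT1, encoded by Slc11a2, work at the brush border, and the exporter ferroportin (Slc40a1) with the ferroxidase hephaestin (Heph) passes iron on at the basolateral side. Dividing crypt cells also take up transferrin-bound iron from the blood through the transferrin receptor (Tfrc). The iron regulatory proteins IRP1 (Aco1) and IRP2 (Ireb2) bind stem-loops in the mRNAs of several of these genes when iron is scarce. Part of the iron is built into heme, whose synthesis begins with ALAS1 in the mitochondrion and includes uroporphyrinogen III synthase (Uros), while HMOX1 breaks heme down and frees its iron.

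Values are deposited linear intensities. Group means are given ± SD, and differences are knockout minus control on log2(intensity + 16), ± SE of the limma fit, each with n = 2 arrays per group. Folds are on the same scale and understate the change of dim probe sets. A probe set was called at a Benjamini-Hochberg adjusted p under 0.05 over all 45050 probe sets tested, and a gene was represented by its brightest probe set. Array medians lay between 138.7 and 142.9, and the median of 27 Bacillus control probe sets, a guide to background, between 31.9 and 35.6. All 4 probe sets of the deleted gene, Yy1, were called lower. The brightest read 1648 and 1681 in control and 69.4 and 68.1 in knockout arrays (-4.31 ± 0.10, adjusted p = 1.55e-05). Whether they cover the floxed segment was not analysed here.

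Of the 10 genes, Heph, Aco1 and Alas1 fell in the knockout and Uros rose, while Slc40a1, Slc11a2, Cybrd1, Tfrc, Ireb2 and Hmox1 were not called by their brightest probe set. Over all 18193 genes the same test called 23.0%, with 12.6% higher and 10.4% lower. The median log2 difference of the 10 genes was -0.24, beside 0.01 over all genes. The changes were modest: the folds of the 4 called genes lay between 1.41 and 1.70. Of the 24 probe sets 7 were called lower and 1 higher, where 9.09% and 10.9% of all probe sets were. Knockout and control values were fully apart in 9 of the 10 genes and in 21 of the 24 probe sets, beside 62.0% of all genes and 59.9% of all probe sets. The counts depended on single arrays. Without control replicate 1 the fit called 0 of the 10 genes lower and Uros higher, without control replicate 2 only Aco1, and without knockout replicate 1 only Heph. Without knockout replicate 2 the counts were again 3 lower and 1 higher. Those reduced fits rest on 3 arrays, and those without control replicate 1, control replicate 2 and knockout replicate 1 called 2112, 1947 and 2442 of all genes.

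**Figure D1:**
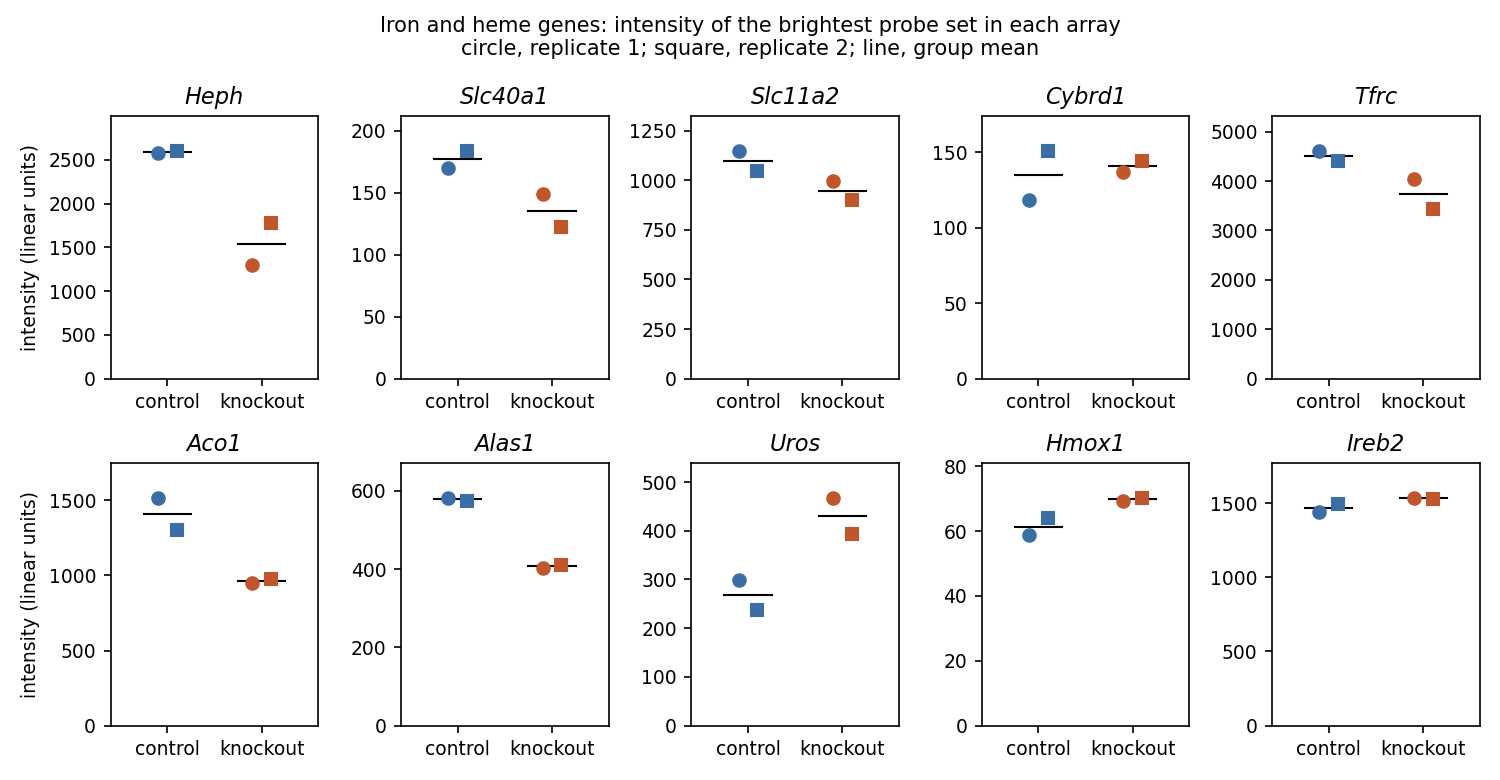
Intensity (linear units, axes from 0) of the brightest probe set of each of the 10 genes in the 4 arrays; circles are replicate 1, squares replicate 2, and lines the group means. Heph, Aco1 and Alas1 lie lower in both knockout arrays than in both control arrays, Uros lies higher, and the groups overlap only for Cybrd1.

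Stretches of the promoters of called genes are shown because YY1 is a promoter-binding factor and because Aco1 and Alas1 fell while Uros rose. Sequences are from RefSeq (GRCm38.p6), which held promoter windows for 6 of the 10 genes (Cybrd1, Tfrc, Aco1, Alas1, Uros and Ireb2), 9 windows in all. The 250 bases before each start were searched on both strands for ATGGC, the core letters of the YY1 motif, for the longer YY1 form AANATGGC, which contains that core, and for ACGTG, the core letters of the hypoxia response element. The windows below run 5′ to 3′ on the strand of the gene, and capitals mark ATGGC or its reverse complement GCCAT. The Aco1 window is chr4:40143015-40143264 on the plus strand, and the Alas1 window, at the outer of its listed starts, is chr9:106247955-106248204 on the minus strand. For Uros the 30 bases around each match are given, on the minus strand, at chr7:133709345-133709374 (site 1) and chr7:133702608-133702637 (site 2).
Aco1: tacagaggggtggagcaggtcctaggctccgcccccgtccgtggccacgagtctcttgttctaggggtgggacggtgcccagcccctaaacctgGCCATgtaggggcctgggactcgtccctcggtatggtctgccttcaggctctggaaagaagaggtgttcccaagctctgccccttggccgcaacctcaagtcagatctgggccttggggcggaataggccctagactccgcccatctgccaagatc
Alas1: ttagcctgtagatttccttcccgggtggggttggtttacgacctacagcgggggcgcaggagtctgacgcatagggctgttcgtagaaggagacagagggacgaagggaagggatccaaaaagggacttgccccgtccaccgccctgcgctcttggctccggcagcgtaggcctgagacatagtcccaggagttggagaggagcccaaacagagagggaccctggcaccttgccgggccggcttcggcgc
Uros site 1: ttagccttagatGCCATgtcgccggtcaca
Uros site 2: ttggtttcactaATGGCtctcacttgcctt

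The core ATGGC stood in 4 of the 9 windows: 1 match each in Aco1 (bases 156 to 152 before the start), Ireb2, and both windows of Uros (bases 67 to 63 and 125 to 121 before their starts). It stood in 32.9% of all 32851 windows of this length. The longer form was in 0 of the 9 windows and in 3.91% of all. Neither window of Alas1, which fell, held any of the letters searched, and Ireb2, which held the core, was not called. All 250 bases of both Uros windows and of the Ireb2 window lie within the annotated span of the same gene. The first Uros window also shares 213 bases with the neighbouring gene Bccip, so its match cannot be assigned to Uros alone. The printed Alas1 window shares 133 bases with 4930500F10Rik. ACGTG or its reverse complement was in 1 window each of Tfrc and Uros and in 16.6% of all. These matches describe letters and show no binding.

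Heph, the membrane ferroxidase of basolateral iron export, showed the largest estimated difference of the 10 genes. Its only probe set read 2583 and 2607 in the control arrays and 1295 and 1776 in the knockout arrays. Both knockout arrays were low, the first more so, and the groups were well apart. The means were 2595 ± 17 and 1535 ± 340, a difference of -0.77 ± 0.15 or 1.70-fold (adjusted p = 0.0130). Heph missed the threshold without control replicate 1 (adjusted p = 0.0635) and without control replicate 2 (0.0671), at -0.78 and -0.76, and its adjusted p ranged from 0.00326 to 0.0671 over 14 alternatives.

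Slc40a1, the iron exporter ferroportin that works with hephaestin, was dim and was not called. Its brighter probe set read 170 and 184 in control and 149 and 122 in knockout arrays (-0.35 ± 0.12, adjusted p = 0.0861). The other read 159 and 154 against 123 and 128 (-0.28 ± 0.10, adjusted p = 0.0875). Groups were fully apart in 59.9% of all probe sets, and in both probe sets of Slc40a1 each knockout array lay below each control array. When the log2 values of both were averaged before a fit over genes, Slc40a1 passed the threshold, at -0.32 ± 0.09 (adjusted p = 0.0388, against a range from 0.0388 to 0.310 over 14 alternatives).

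Slc11a2, the proton-coupled importer of ferrous iron at the brush border, was lower with 2 of its 4 probe sets. The second brightest read 653 and 617 in control and 473 and 401 in knockout arrays (-0.53 ± 0.12, adjusted p = 0.0186). The next read 490 and 465 against 360 and 367 (-0.38 ± 0.10, adjusted p = 0.0341). The brightest, a probe set that by its name matches several transcripts of the gene, read 1151 and 1050 against 998 and 900. Its difference was not called (-0.21 ± 0.11, adjusted p = 0.236). The dimmest was not called either, at 115 and 97.4 against 90.9 and 83.2 (-0.24 ± 0.11). The groups were apart in all 4 probe sets, which were read from the same arrays, and in 59.9% of all probe sets. The mean of the 4 passed in the fit over genes (-0.34 ± 0.09, limma adjusted p = 0.0390), the only 1 of 14 alternatives that called Slc11a2. Slc11a2 makes transcripts with different ends, with and without an iron-responsive stem-loop. Which of them each probe set reports was not analysed here, and differences between the probe sets were not tested.

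Cybrd1, the duodenal ferric reductase, was dim and gave no called difference. Its brighter probe set read 118 and 151 in control and 137 and 144 in knockout arrays, with overlapping groups. The difference was 0.07 ± 0.13, with a 95% interval from -0.24 to 0.37. The other probe set gave -0.05 ± 0.10, at 92.1 and 88.8 against 85.0 and 88.9.

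**Figure D2:**
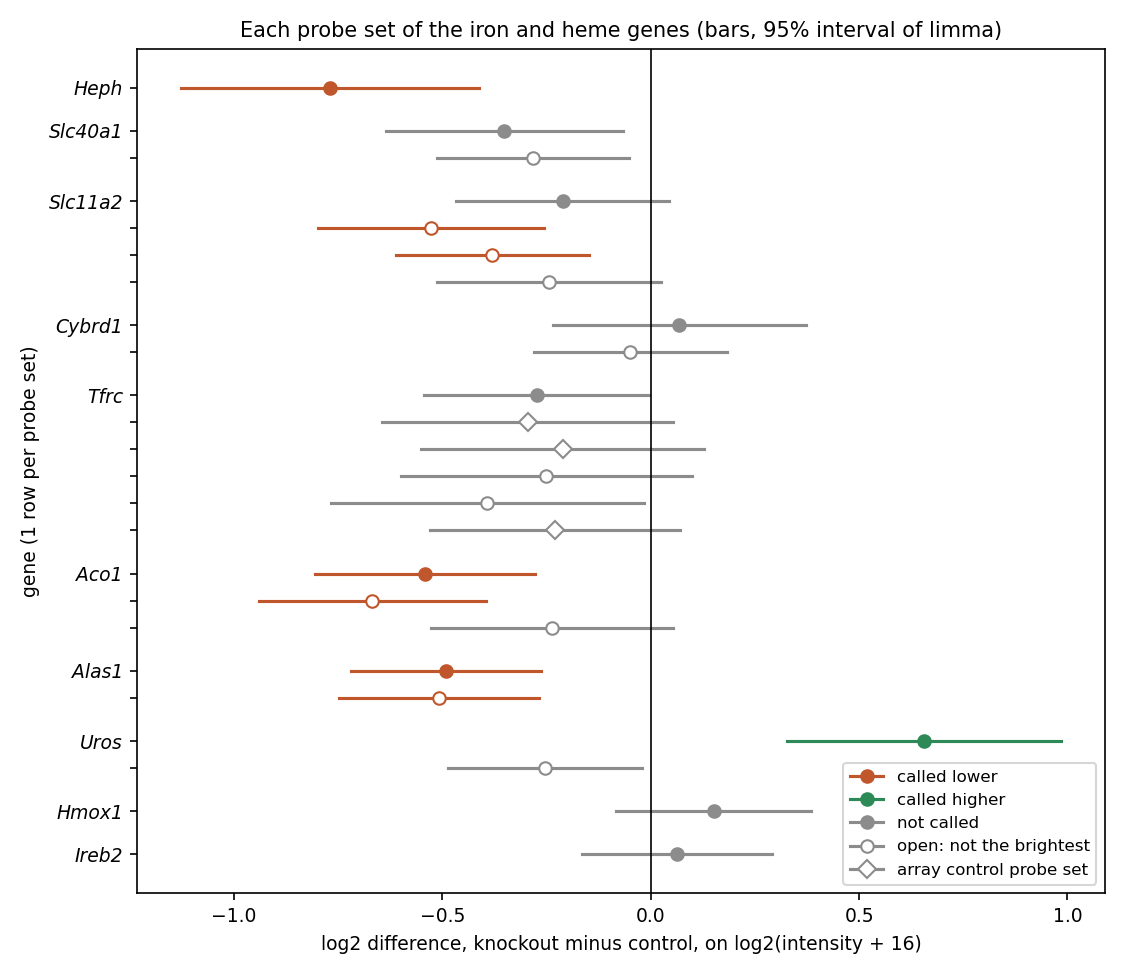
Log2 difference, knockout minus control, of each of the 24 probe sets of the 10 genes, with the 95% interval of the limma fit; filled symbols are the brightest probe set of a gene, open symbols the others, and diamonds the array control probe sets of Tfrc. The 7 probe sets called lower belong to Heph, Slc11a2, Aco1 and Alas1, and the 2 probe sets of Uros lie on opposite sides of 0.

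Tfrc, the receptor that takes up transferrin-bound iron, was lower on average with all 6 of its probe sets, but none was called. The brightest read 4618 and 4405 in control and 4040 and 3442 in knockout arrays (-0.27 ± 0.12, adjusted p = 0.148). Knockout replicate 2 was the low array: relative to the control mean, the brightest probe set lay at -0.39 there and at -0.16 in knockout replicate 1. The log2 differences of the other probe sets ran from -0.39 to -0.21, with adjusted p between 0.139 and 0.374. With a trended and robust prior in limma the brightest probe set passed, at an adjusted p of 0.0364, the lowest of 14 alternatives, which reached up to 0.442. The 3 array control probe sets lie toward the 3′ end, the middle and the 5′ end of the transcript and so also bear on RNA quality. Their 3′ minus 5′ log2 difference was -0.06 and -0.12 in control and -0.02 and 0.01 in knockout arrays. For Gapdh the same measure was 1.44 and 1.40 against 1.71 and 1.65, and for Actb 0.28 and 0.24 against 0.33 and 0.29. For Tfrc, Gapdh and Actb alike, both knockout arrays lay above both control arrays. The part of RNA quality in the differences given here was not tested.

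Of the genes for the iron regulatory proteins, Aco1 fell and Ireb2 was not called. Aco1, whose product IRP1 is a cytosolic aconitase when it holds an iron-sulfur cluster and binds RNA when it does not, read 1518 and 1303 in control and 950 and 973 in knockout arrays. The knockout arrays were close together and below both controls (-0.54 ± 0.11, 1.46-fold, adjusted p = 0.0154). A second probe set, marked by its name as open to cross-hybridisation, fell from 1446 ± 176 to 901 ± 13.7 (-0.67 ± 0.12, adjusted p = 0.00804). The remaining, dim one was not called, at 77.4 and 60.6 against 57.6 and 54.0 (-0.24 ± 0.12, adjusted p = 0.239). Without control replicate 1, the higher control, the brightest probe set gave -0.43 (adjusted p = 0.102), and without knockout replicate 1 it gave -0.53 (0.0636). Over 14 alternatives the adjusted p of Aco1 ran from 0.00451 to 0.239, the last with its dimmest probe set.

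Ireb2, whose product IRP2 binds the same RNA stem-loops, read 1443 and 1491 in control and 1537 and 1527 in knockout arrays. Both knockout arrays were slightly higher, and the difference was not called (0.06 ± 0.10, adjusted p = 0.721). Its 95% interval ran from -0.17 to 0.29. The difference between Aco1 and Ireb2 was not itself tested.

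Alas1, the first and rate-limiting enzyme of heme synthesis outside the red cell lineage, fell with both of its probe sets. The brighter read 583 and 575 in control and 403 and 412 in knockout arrays. Replicates lay within a few units of each other, with a wide gap between the groups (-0.49 ± 0.10, 1.41-fold, adjusted p = 0.0129). The other, marked as open to cross-hybridisation, read 504 and 480 against 355 and 328 (-0.51 ± 0.10, adjusted p = 0.0137). With control replicate 1, control replicate 2 or knockout replicate 1 left out, the brighter probe set gave -0.48, -0.50 and -0.48, and the adjusted p was 0.0775, 0.0695 and 0.0533. The lowest adjusted p of Alas1 over 14 alternatives was 0.00686.

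Uros, which closes the linear tetrapyrrole into the ring of uroporphyrinogen III, was the only member called higher. Its brighter probe set read 298 and 238 in control and 468 and 394 in knockout arrays. Both knockout arrays were above both controls (0.66 ± 0.14, 1.58-fold, adjusted p = 0.0170). Its dimmer probe set went the other way, at 137 and 130 against 112 and 107, and was not called (-0.25 ± 0.10, adjusted p = 0.122). The rise therefore rests on 1 of 2 probe sets, and the mean of both gave 0.20 ± 0.10 (adjusted p = 0.223). Without control replicate 2 the brighter probe set gave 0.50 (adjusted p = 0.102), and without knockout replicate 1 it gave 0.54 (0.0827), while over 14 alternatives the adjusted p of Uros ran from 0.00546 to 0.223.

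Hmox1, the inducible heme oxygenase, was close to background in all arrays. It read 58.7 and 64 in control and 69.4 and 70.3 in knockout arrays, slightly higher in both of the latter (0.15 ± 0.10, adjusted p = 0.357). Its 95% interval ran from -0.08 to 0.39.

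Companion genes of iron and heme handling were taken from 5 lists with 88 listed genes, of which 81 had a probe set of their own. In these lists 9 genes rose and 18 fell, where 12.6% of all genes were higher and 10.4% lower, and their median log2 difference was -0.03. The share that rose was thus near that of all genes. The share that fell was above that of all genes, a difference that was not tested. The counts of each list below are to be read beside the same shares, and no list was tested against them. The count of 27 became 14 without control replicate 1, 10 without control replicate 2, 13 without knockout replicate 1 and 21 without knockout replicate 2. All 27 kept their direction under both other scalings, both other pseudocounts and each omission of 1 array, and 18 of them stayed called under all of those scalings and pseudocounts. The call itself held in all 4 fits with 1 array left out for 8 genes: Abcg2, Arnt, Egln3, Fbxl5, Isca2, Sfxn1, Slc25a37 and Steap1. It held in none of these fits for Abcb6, Clpx, Fth1, Hspa9, Iscu and Pcbp2. For Bach1, Blvrb, Fabp1, Nfs1, Nfu1, Slc39a8, Steap3 and Urod it held in only 1, that without knockout replicate 2. For 18 of the called genes there were several probe sets, and in 0 of these was one called against the brightest.

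Of 20 measured genes of iron transport and storage 3 rose and 4 fell (median 0.03). Steap1, of the STEAP family of metalloreductases, rose from 160 and 197 in control to 652 and 475 in knockout arrays (1.56 ± 0.17, 2.96-fold, adjusted p = 0.00175). Its family members Steap2 (0.16 ± 0.13) and Steap4 (-0.11 ± 0.11) were not called. Steap3, the endosomal ferrireductase of the transferrin cycle, fell with 1 of its 3 probe sets (-0.43 ± 0.10). Sfxn1, a mitochondrial serine transporter of the sideroflexin family, fell from 2136 and 1868 to 667 and 801 (-1.43 ± 0.13, adjusted p = 0.00103). Slc46a1, the intestinal folate transporter that was first described as a heme carrier, fell from 309 and 364 to 133 and 196 (-0.98 ± 0.17, adjusted p = 0.00870).

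Fth1, the ferritin heavy chain, fell with both of its 2 probe sets. The brighter went from 7135 and 7207 to 5523 and 5575 (-0.37 ± 0.10, adjusted p = 0.0353), and the other stood at -0.74. The brighter stayed called under 2 of the 4 other scalings and pseudocounts. Ferritin genes have many processed copies in the genome, which such probes may also detect. Ftmt, the mitochondrial ferritin, was below the background guide, at 28.5 and 26.7 against 30.5 and 27.4, and was not called (0.04 ± 0.10). The metal transporter Slc39a8 (1 of 2 probe sets, 0.41 ± 0.12, adjusted p = 0.0436) and Pcbp2, an RNA-binding protein that also acts as an iron chaperone (2 of 3 probe sets, 0.40 ± 0.10, adjusted p = 0.0263), rose.

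Of 19 genes that regulate iron or oxygen responses 5 fell and 0 rose (median -0.13). At an unadjusted p under 0.05, limma counted 10 of the 19, beside 6383 of all 18193 genes. Egln3, a prolyl hydroxylase that marks hypoxia-inducible factors for decay and is itself a hypoxia target, fell from 1652 and 2046 to 338 and 443 (-2.20 ± 0.16, 4.60-fold, adjusted p = 0.000601). Arnt, the shared partner of the hypoxia-inducible factors, fell with all 5 of its probe sets. The brightest went from 1021 and 1048 to 596 and 636 (-0.73 ± 0.10, adjusted p = 0.00352). Epas1, which encodes HIF-2alpha, the main oxygen-dependent regulator of intestinal iron absorption genes, read 1097 and 835 against 677 and 543 (-0.65 ± 0.16, adjusted p = 0.0300), while its other probe set stood at -0.06. Epas1 was not called without control replicate 1 or without knockout replicate 2.

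Fbxl5, the iron-sensing ubiquitin ligase subunit that marks IRP2 for decay, fell from 1126 and 1167 to 715 and 751 (-0.63 ± 0.10, adjusted p = 0.00552). Bach1, the heme-binding repressor of Hmox1, fell from 1473 and 1642 to 876 and 1192 (-0.60 ± 0.16, adjusted p = 0.0339). Bach1 was called in 1 of the 4 fits with 1 array left out, that without knockout replicate 2. Hamp, the hepcidin gene, was dim, at 129 and 121 against 124 and 121 (-0.03 ± 0.10).

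**Figure D3:**
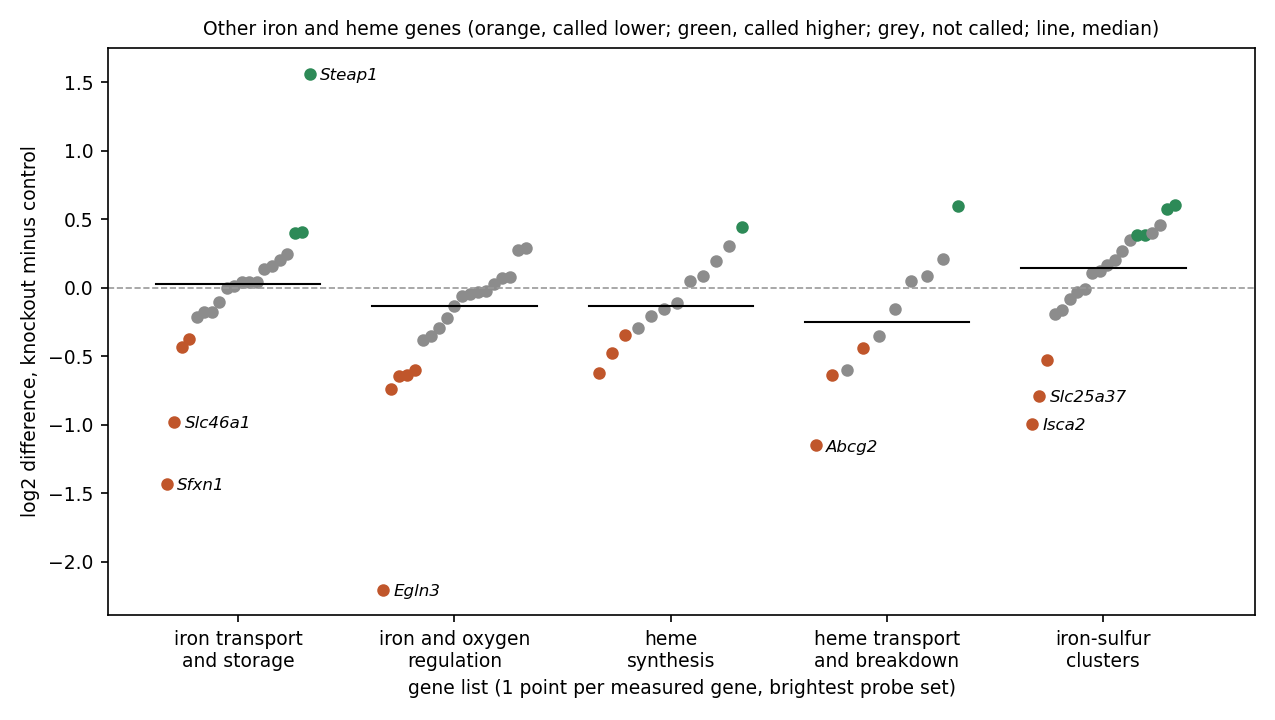
Log2 difference, knockout minus control, of 81 companion genes in 5 lists, 1 point per gene with its brightest probe set; orange points were called lower, green points higher, grey points were not called, and lines are list medians. Egln3 and Sfxn1 show the largest falls, at -2.20 and -1.43, and Steap1 the largest rise, at 1.56.

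In heme synthesis 3 of 12 measured genes fell and 1 rose (median -0.13). Urod, the decarboxylase that follows Uros in the pathway, read 1360 and 1393 against 882 and 1108 (-0.47 ± 0.13, adjusted p = 0.0407). This probe set is marked by its name as open to cross-hybridisation. The other of the 2 probe sets of Urod was also called lower, at -0.45. The mitochondrial ABC transporters Abcb10 (2 of 3 probe sets, with the other at 0.15; -0.62 ± 0.11, adjusted p = 0.0101) and Abcb6 (-0.35 ± 0.10, adjusted p = 0.0453) also fell. Clpx, a subunit of the mitochondrial protease that acts on ALAS proteins, rose (0.45 ± 0.10, adjusted p = 0.0203) with 1 of its 2 probe sets. Alad, the enzyme after ALAS1, was not called (0.09 ± 0.10). Alas2, the red cell counterpart of Alas1, stood at 96.7 and 98.0 against 87.8 and 116 (0.05 ± 0.13).

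In heme transport and breakdown 3 of 10 genes fell and 1 rose (median -0.25). Abcg2, an exporter of porphyrins and many drugs, fell from 1189 and 1284 to 503 and 598 (-1.15 ± 0.12, 2.22-fold, adjusted p = 0.00158). Of the biliverdin reductase genes, Blvra rose from 594 and 560 to 901 and 860 (0.60 ± 0.10, adjusted p = 0.00711), and Blvrb fell from 302 and 294 to 208 and 224 (-0.44 ± 0.10, adjusted p = 0.0221). Fabp1, a fatty acid carrier that also binds heme and is an enterocyte marker, fell (-0.64 ± 0.15, adjusted p = 0.0214). Hmox2, the constitutive heme oxygenase, was not called (0.09 ± 0.10).

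Genes of iron-sulfur cluster assembly differed in direction, with 4 of 20 higher and 3 lower (median 0.15). Over all genes 12.6% were higher and 10.4% lower. The core assembly genes Nfs1, the sulfur donor (1 of 3 probe sets, 0.60 ± 0.13, adjusted p = 0.0168), and Iscu, the scaffold (0.39 ± 0.10, adjusted p = 0.0345), rose. So did Glrx5, which passes the finished cluster on (0.58 ± 0.10, adjusted p = 0.00780), and the assembly chaperone Hspa9 (0.39 ± 0.10, adjusted p = 0.0307). Hspa9 was called with 2 of its 5 probe sets, and the lowest of these 5 stood at -0.15. Isca2, a late-acting factor for clusters with 4 iron atoms, fell from 1082 and 1056 to 559 and 503 (-0.99 ± 0.11, adjusted p = 0.00168). Nfu1, another late-acting factor (-0.53 ± 0.10, adjusted p = 0.0113), and the mitochondrial iron importer Slc25a37 (-0.79 ± 0.11, adjusted p = 0.00398) also fell.

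Markers of enterocytes were lower and genes of dividing cells higher in the same arrays. Of 19 enterocyte markers 15 fell and 0 rose, and their summed intensity was 111526 to 113324 in control and 53522 to 77626 in knockout arrays. Of 15 proliferation genes 10 rose and 0 fell, with sums of 21212 to 21664 and 29946 to 31466. Fewer cells of a type and less RNA per cell cannot be told apart in such samples, and the part of either shift in the iron and heme genes was not tested. All 19 enterocyte markers were lower in knockout replicate 1 than in knockout replicate 2. Of the 6 members that were below the control mean in both knockout arrays, this order held in 3, Heph, Aco1 and Alas1, and was turned in Slc40a1, Slc11a2 and Tfrc. For Heph the shifts were -0.99 and -0.54. For Aco1 and Alas1 the order had small gaps, with -0.56 and -0.53 for Aco1, and it was turned in the other called probe set of each, at -0.65 and -0.68 for Aco1 and -0.45 and -0.56 for Alas1.

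Markers of other cell types included single genes that differed as much as the members did. Over all genes 23.0% were called, and these marker lists were not tested against that share. Of 14 macrophage markers 1 rose and 0 fell. The riser was Cd14, a receptor for bacterial lipopolysaccharide, at 118 and 118 in control and 295 and 271 in knockout arrays (2.22-fold, adjusted p = 0.000975). Of the 14, 6 stayed under 2 times the Bacillus median in all arrays, among them Spic at 24.0 to 32.0. Their sum was 8644 to 9093 in control and 8625 to 9273 in knockout arrays, most of it from Lyz2, whose close paralog Lyz1 is a Paneth cell gene. Of 6 measured red cell markers 0 were called, with sums of 624 to 627 and 612 to 613. Counting unadjusted limma p-values under 0.05 gave 2 of the 6, a share close to that of all genes. Of 12 markers of mesenchyme and endothelium 1 fell (sums 1511 to 1712 and 1366 to 1392). It was Pdgfra, with 1 of its 3 probe sets, dim at 108 and 101 against 45.9 and 50.9 (-0.90 ± 0.10). The highest of its probe sets stood at 0.41. Of 9 other immune markers 2 fell (sums 1666 to 1740 and 1262 to 1462). These were the T cell gene Cd3g at -0.69 ± 0.11 and the leukocyte gene Ptprc at -0.42 ± 0.12. Ptprc was called with 1 of its 2 probe sets, at a limma adjusted p of 0.0494. Of 7 goblet cell markers 2 fell (43952 to 45688 and 34950 to 41082), and of 5 Paneth cell markers 1 rose (37358 to 39267 and 37662 to 39176). Their part in the differences of the iron and heme genes was not tested.

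**Figure D4:**
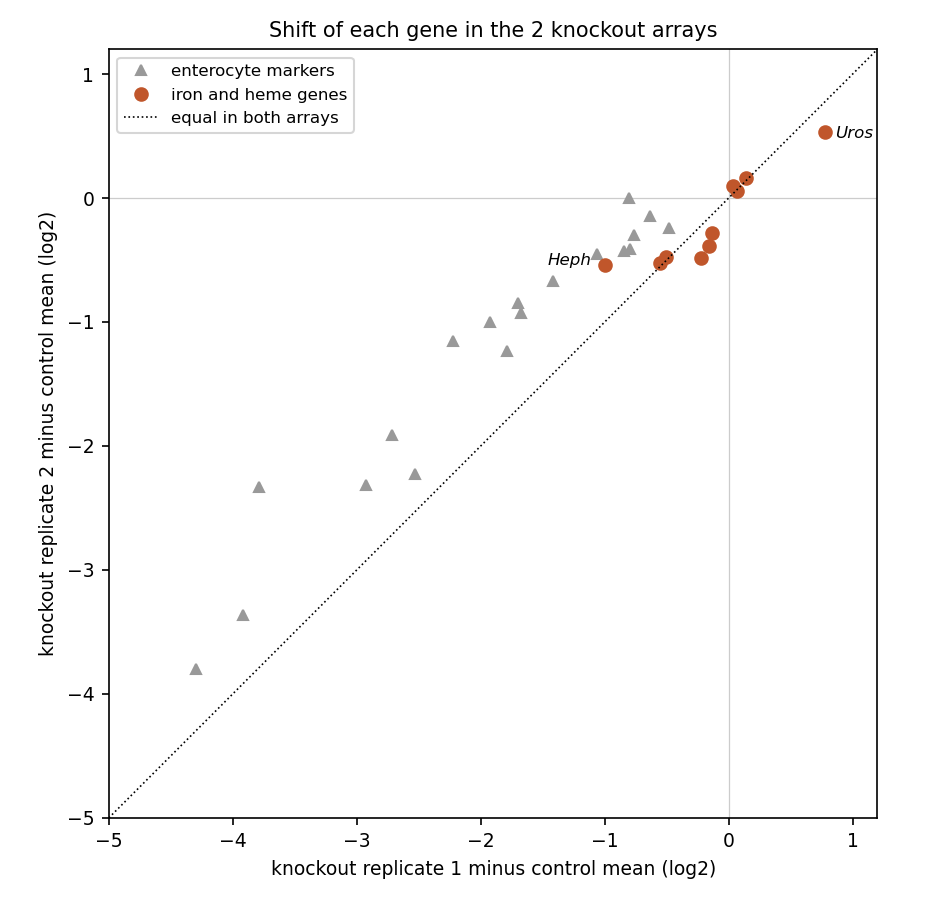
Shift of each gene from the control mean (log2) in knockout replicate 1 (horizontal axis) and knockout replicate 2 (vertical axis), for the 10 iron and heme genes (orange circles) and 19 enterocyte markers (grey triangles); the dotted line marks equal shifts. All enterocyte markers lie above the dotted line, while the iron and heme genes lie on both sides of it, with Heph above and Uros, Slc40a1, Slc11a2 and Tfrc below.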

How the data were processed

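Biotin-labelled total RNA of EDTA-isolated jejunal crypts, passed through a 70 um filter, was hybridised to Affymetrix arrays, per the labels' protocols. The deposited values are linear intensities, 1 per probe set and array. How the authors summarised, background-corrected and normalized them is not given in the sources used here. Medians agreed closely, so no further scaling was applied. Probe sets were named from GEO's platform annotation, and a RefSeq table (GRCm38.p6) gave current symbols by Entrez ID: 34945 had 1 gene, 932 several and 9160 none listed. Array controls without a gene (51) were left out.

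The log2(intensity + 16) values were fitted by lmFit and eBayes (limma 3.58.1, R 4.3.3; knockout minus control; 7.34 degrees of freedom), with Benjamini-Hochberg adjustment over 45050 probe sets. It ran over probe sets because the genes were taken by their probe sets. An exact permutation test of 2 arrays against 2 cannot give a p under 0.333, so none is given. The members, lists and tests were chosen with earlier results of these data known. All members and Yy1 are named, with up to 4 called genes per direction from each companion list, or all where 5 or fewer were called. Companion genes named without a call were chosen after their values were seen. Alternatives were other pseudocounts, scalings, priors, a filter, a replicate block, other gene summaries and omission of each array.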

Additional observations from a re-analysis of the deposited data

How the results depend on the processing

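The called counts rest on few arrays and on sharing the spread across probe sets: without moderation 0 of 45050 probe sets were called, while limma counted 14697 at an unadjusted p under 0.05. With 1 array left out, the number of probe sets called ranged from 4044 to 8547 (9021 with all arrays), of genes from 1947 to 3973 (4185), of companion genes from 10 to 21 (27, and 18 with a pseudocount of 1), of members called lower from 0 to 3 and of members called higher from 0 to 1. With the mean of all probe sets of a gene, 5 members were called lower and 0 higher, and with the dimmest probe set 2 were lower and 0 higher. The dimmest probe set turned the sign of Uros to -0.254 and of Cybrd1 to -0.049. With 1 array left out, Cybrd1 ranged from -0.094 (without control replicate 1) to 0.231. The other alternatives (pseudocounts of 1 and 64, quantile or median scaling, the filter at a mean of 64, the trended prior, the fit over genes) called 3 or 4 members lower and 1 higher. A replicate block, on numbers that pair the samples by label only, called 9968 probe sets, 4529 genes and 30 companion genes and left the member counts at 3 lower and 1 higher. The deviations of same-numbered arrays correlated at 0.102 over probe sets. Causes of these differences were not tested, and the number of arrays limits precision.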

Other observations

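Of the 54 companion genes that were not called by their brightest probe set, 4 had another probe set that was called. They were looked up after their values were seen. One is Hif1a, which encodes the oxygen-regulated HIF-1alpha. Its called probe set read 906 and 910 in control and 692 and 681 in knockout arrays (-0.40 ± 0.10, limma adjusted p = 0.0278), and its brightest, at 2007 and 2113 against 1699 and 1467, just missed the threshold (-0.38 ± 0.11, adjusted p = 0.0536). Flvcr1, a heme exporter that has also been linked to choline uptake, read 405 and 314 against 226 and 257 with its called probe set (-0.54 ± 0.14, adjusted p = 0.0350). Its brightest, at 1267 and 849 against 676 and 682, also just missed the threshold (-0.60 ± 0.18, adjusted p = 0.0531). Nubp1, a scaffold of cytosolic iron-sulfur cluster assembly, was higher with 2 of its 3 probe sets, at 0.57 ± 0.13 and 0.51 ± 0.11 (adjusted p = 0.0242 and 0.0150). Its brightest probe set gave 0.46 ± 0.15 and was not called. The last is Fech, the ferrochelatase that completes heme, with 1 of 4 probe sets called lower, at 206 and 183 against 122 and 119 (-0.62 ± 0.11, adjusted p = 0.00725). Its brightest probe set gave -0.21 ± 0.10 and was not called, and the highest of the 4 stood at 0.34.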
